A study of Mus musculus with 18 samples.

Results

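The H3K4me3 landscape of MC3T3-E1 subclone 4 cells was compared between cells given the EZH2 inhibitor EPZ6438 and cells given its vehicle, through the regions that the authors called as enriched for the mark. MC3T3-E1 subclone 4 is a single subclone of a mouse calvaria line of pre-osteoblasts (strain C57BL/6), used here at passage 9. The vehicle arm received 0.25% DMSO and the inhibitor arm 2.5 µM EPZ6438, both for 3 days in osteogenic medium, and the labels do not state whether the EPZ6438 arm also held DMSO. H3K4me3, H3K27me3 and input chromatin each came from 2 samples per arm, and RNA from 3 samples per arm. All 56329 H3K4me3 regions of the 2 arms were taken, 40113 from the DMSO list and 16216 from the EPZ6438 list, out of 220492 regions of both marks. A region counted as shared where it overlapped a region of the other list by at least 1 bp, and as a promoter region where it lay within 1 kb of either end of a gene, since the gene table gives no strand. By this rule 7266 overlapping pairs lay at gene ends. One merged list exists per arm, with positions and no heights, so the difference between the lists has no replicate check and no test was made of it.

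H3K4me3 is the trimethyl mark on lysine 4 of histone H3. It is written by the SET1 and MLL (KMT2) complexes, which are recruited in part through CXXC proteins that bind unmethylated CG dinucleotides, and it is removed by the KDM5 demethylases. It marks the starts of active genes, where it spreads into the first nucleosomes of the transcribed region, and it is also found with the Polycomb mark H3K27me3 at promoters described as bivalent. EZH2, the target of EPZ6438, is the enzyme that writes H3K27me3.

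The RNA libraries held 18807156 to 25365513 reads in genes. Levels are in RPKM (reads per kilobase of gene length, scaled to the library's total). An H3K4me3 peak at a gene end stood at 24.2% (DMSO list) and 30.5% (EPZ6438 list) of tested genes under 1 RPKM in DMSO. In the same order, the shares were 47.2% and 63.4% at 1 to 10 RPKM and 60.8% and 80.1% at 10 to 100 RPKM. At 100 RPKM or more they were 60.6% and 77.5%, so the share rose with expression only up to 10 to 100 RPKM. Among 9935 protein-coding genes too low to be tested, 5.85% and 3.27% had such a peak. Of the 28 osteoblast markers, 27 were abundant enough to be tested. The same held for 3 of 11 blood cell markers, 3 of 10 endothelial markers, 1 of 9 adipocyte markers and 2 of 9 skeletal muscle markers. The summed level of the tested members was 16.8 and 19.9 RPKM (DMSO and EPZ6438) for the blood list, nearly all of it Lyz2, and 1.52 and 2.79 RPKM for the skeletal muscle list, against 7538 and 9996 RPKM for the osteoblast list. Of 9 smooth muscle and myofibroblast markers 8 were tested, with summed levels of 3054 and 2354 RPKM. Of 16 chondrocyte markers 12 were tested, with summed levels of 125 and 253 RPKM. Being abundant enough to be tested was thus not particular to osteoblast markers. Nothing in the labels says that the samples of an arm were grown as separate cultures. The p-values therefore rest on a spread between samples that could be technical.

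Some of the promoters behind the results are shown with every CG dinucleotide in capitals, because CG content was the sequence feature compared between the classes of H3K4me3 regions. The windows are RefSeq promoters of assembly GRCm38.p6, from 250 bases before to 50 bases after a start site, written 5′ to 3′ along the gene. Slc30a4, which encodes a zinc transporter, had the second largest widening by the naming rule (chr2:122702614-122702913, minus strand, 46 CG). Relative to the start site, its DMSO peak reached from -229 to -33 bp and its EPZ6438 peak from -184 to 1496 bp. Phospho1, a phosphatase of matrix mineralization, had a widened peak and rising RNA (chr11:95824250-95824549, plus strand, 42 CG). Wif1, a secreted Wnt inhibitor, had a peak in the EPZ6438 list only (chr10:121033754-121034053, plus strand, 25 CG), and Robo2, a receptor for Slit proteins, in the DMSO list only (chr16:74411776-74412075, minus strand, 17 CG). Rnaset2a, a ribonuclease gene with a narrower EPZ6438 peak, had only 4 CG in its window (chr17:8148197-8148496, minus strand).
Slc30a4: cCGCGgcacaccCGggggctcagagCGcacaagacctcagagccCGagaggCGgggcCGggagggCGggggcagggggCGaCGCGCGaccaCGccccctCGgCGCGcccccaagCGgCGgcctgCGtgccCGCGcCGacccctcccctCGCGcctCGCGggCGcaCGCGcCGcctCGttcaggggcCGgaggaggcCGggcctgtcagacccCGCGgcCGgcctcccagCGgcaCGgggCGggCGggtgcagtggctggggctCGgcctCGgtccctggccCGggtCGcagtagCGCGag
Phospho1: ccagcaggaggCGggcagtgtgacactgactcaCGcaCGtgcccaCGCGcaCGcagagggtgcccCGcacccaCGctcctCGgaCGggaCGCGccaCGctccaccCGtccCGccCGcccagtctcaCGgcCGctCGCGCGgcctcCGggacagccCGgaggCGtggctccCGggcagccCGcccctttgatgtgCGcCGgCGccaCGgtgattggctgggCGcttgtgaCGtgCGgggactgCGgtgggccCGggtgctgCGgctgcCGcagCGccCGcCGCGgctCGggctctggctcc
Wif1: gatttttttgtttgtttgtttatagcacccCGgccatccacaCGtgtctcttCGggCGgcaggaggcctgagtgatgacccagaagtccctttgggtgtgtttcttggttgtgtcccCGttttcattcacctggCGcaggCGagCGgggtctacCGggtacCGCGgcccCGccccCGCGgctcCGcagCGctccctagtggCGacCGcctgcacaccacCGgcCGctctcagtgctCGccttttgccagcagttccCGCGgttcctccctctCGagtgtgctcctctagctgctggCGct
Robo2: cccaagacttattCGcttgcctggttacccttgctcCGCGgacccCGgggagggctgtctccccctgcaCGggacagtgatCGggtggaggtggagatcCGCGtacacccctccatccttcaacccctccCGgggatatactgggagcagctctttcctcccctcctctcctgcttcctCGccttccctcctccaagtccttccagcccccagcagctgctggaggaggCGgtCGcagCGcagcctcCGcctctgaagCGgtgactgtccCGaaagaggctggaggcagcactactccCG
Rnaset2a: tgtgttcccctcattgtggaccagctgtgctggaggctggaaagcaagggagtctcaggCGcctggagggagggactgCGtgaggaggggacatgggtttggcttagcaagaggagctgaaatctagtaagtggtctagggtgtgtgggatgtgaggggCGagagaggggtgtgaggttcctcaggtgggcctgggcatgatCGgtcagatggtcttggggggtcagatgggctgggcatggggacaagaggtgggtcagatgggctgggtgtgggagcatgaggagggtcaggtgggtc
The 5 windows run from CG-dense (Slc30a4 and Phospho1) to CG-poor (Rnaset2a), and Phospho1, Wif1 and Robo2 were chosen after their values were seen. CG content was not compared between widened and narrowed regions, so these single windows stand for neither.

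Across all RefSeq promoters, a window held a median of 7 CG, and 43.5% of 32851 windows held at least 10. The windows were classed by whether an H3K4me3 region lay within 1 kb of their start site. The 7058 windows with a region in both lists held a median of 24 CG, and 91.9% of them had at least 10. The 3040 windows with one in the EPZ6438 list only were close to these, with a median of 21 CG and 86.5% with at least 10. The 797 windows with one in the DMSO list only held a median of 10 CG, and 50.4% had at least 10. Within that DMSO-only class, the 387 windows that also had a DMSO H3K27me3 peak within 1 kb held a median of 6 CG and the other 410 a median of 14. The DMSO-only windows thus had a lower median than the other classes with a region. Of the windows shown, Robo2 (17 CG) is in the DMSO-only class and Wif1 (25 CG) in the EPZ6438-only class, each above its class median. It is a description, with no test.

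The 2 lists differed in number and in width. The EPZ6438 list held 40.4% as many peaks as the DMSO list but covered 8.22 Mb against 10.4 Mb, which is 79.4% as much sequence. The median width was 212 bp in the DMSO list, with quartiles of 178 and 279 bp, and 401 bp in the EPZ6438 list, with quartiles of 276 and 632 bp. The smallest width was 177 bp in the DMSO list, at which 24.2% of its peaks stood, and 229 bp in the EPZ6438 list, at which 9.47% stood. This difference of 52 bp in the smallest width has no stated origin, and its part in the results below was not tested beyond the recalculations given with them.

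Of the DMSO peaks 9507 (23.7%, Wilson 95% interval 23.3 to 24.1) were shared with the EPZ6438 list, and of the EPZ6438 peaks 8630 (53.2%, 52.5 to 54.0) were shared with the DMSO list. The intervals cover counting error only. Shared peaks were the wider ones in each list, with medians of 298 bp in DMSO and 529 bp in EPZ6438. The 30606 DMSO-only peaks had a median of 200 bp and the 7586 EPZ6438-only peaks one of 310 bp. With only peaks of at least 400 bp kept in both lists, the shares were 66.9% of the DMSO peaks and 29.8% of the EPZ6438 peaks. That cut came before the overlap, so a wide EPZ6438 peak over a DMSO peak under 400 bp no longer counted as shared. Without the cut, 4627 EPZ6438 peaks of at least 500 bp were shared and 1391 were not. For DMSO peaks of that width these counts were 1734 and 307. Most wide peaks were thus shared in both lists, and 30299 of the 30606 DMSO-only peaks were under 500 bp. In the plot of widths the DMSO-only peaks stand at the left edge.

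**Figure D1:**
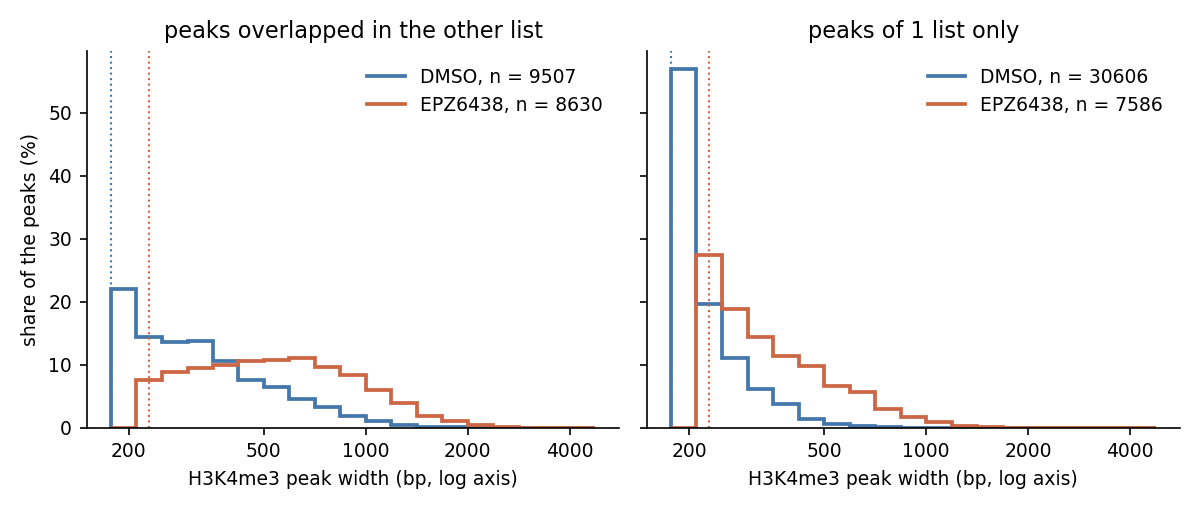
Share of H3K4me3 peaks (y axis, percent of the peaks named in each legend) by width (x axis, bp, log scale) for peaks overlapped in the other list (left) and peaks of 1 list only (right), DMSO in blue and EPZ6438 in orange; dotted lines mark the smallest width of each list. The 30606 DMSO-only peaks pile up near the smallest width of 177 bp, and the shared peaks of the EPZ6438 list lie to the right of those of the DMSO list.

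At gene ends, shared H3K4me3 regions were wider in the EPZ6438 list. Over the 7266 overlapping pairs the median width was 311 bp in DMSO and 628 bp in EPZ6438, and the median ratio was 1.75-fold (log2 0.80, quartiles 0.30 and 1.47). The EPZ6438 peak was the wider in 6414 pairs (88.3%) and the narrower in 841. It was at least 2-fold wider in 3030 pairs (41.7%) and at least 2-fold narrower in 84 (1.16%). A broad peak of one list can lie over several narrow peaks of the other, and among 6366 groups of mutually overlapping peaks 1 EPZ6438 peak covered several DMSO peaks in 774 groups, against the opposite in 101. In the 5450 pairs where each peak met only the other, the median widths were 314 and 550 bp and the median log2 ratio was 0.63, a 1.55-fold difference and 180 bp. In these pairs the DMSO peak lay wholly inside the EPZ6438 peak in 3396 (62.3%), and the EPZ6438 peak wholly inside the DMSO peak in 211 (3.87%).

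**Figure D2:**
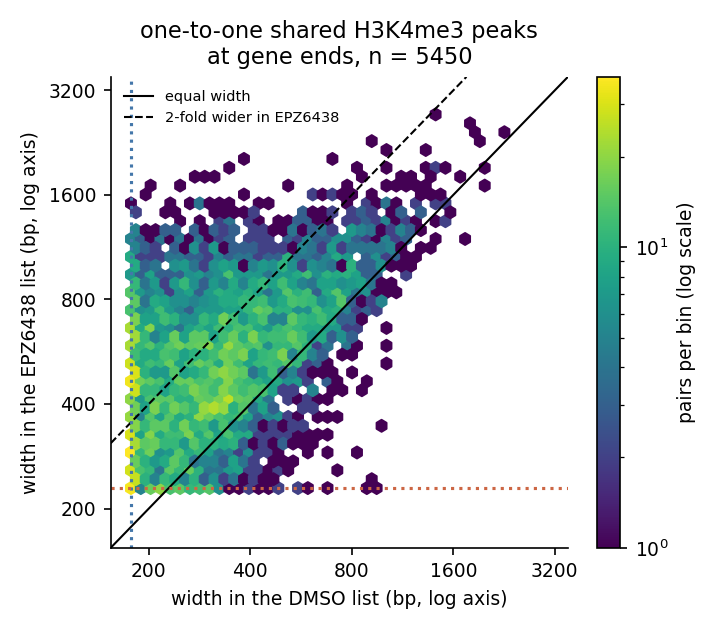
Width in the DMSO list (x axis, bp, log scale) against width in the EPZ6438 list (y axis, bp, log scale) for the 5450 one-to-one shared H3K4me3 pairs at gene ends, with colour giving the number of pairs per bin; the solid line is equal width, the dashed line a 2-fold wider EPZ6438 peak, and dotted lines the smallest width of each list. Of the pairs, 4785 lie above the line of equal width and 1669 on or above the dashed line.

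Part of this difference moved with the smallest widths of the lists. After 52 bp had been taken off every EPZ6438 width, the median log2 ratio in one-to-one pairs was 0.47 and 77.3% were still wider. Where both peaks had at least 300 bp it was 0.43, and with all peaks of at least 400 bp it was 0.45 over all overlapping pairs. In the 162 one-to-one pairs whose geometric mean width was at least 1000 bp, the medians were 1030.5 and 1332 bp (log2 0.32), and 87.7% were wider in EPZ6438. By the same measure, pairs under 300 bp had a median log2 ratio of 0.51 with 85.5% wider, pairs of 300 to 500 bp one of 0.78 with 88.3% wider, and pairs of 500 to 1000 bp one of 0.61 with 88.6% wider. Split by DMSO width alone, which is the denominator of the ratio, the 100 pairs of at least 1000 bp had a median of 0.13 with 73% wider. At the edge of the 1 kb window, 363 DMSO peaks lay in the last 100 bp inside the limit with a median width of 247 bp, and 380 in the first 100 bp beyond it with a median of 229 bp. In the EPZ6438 list 272 and 241 peaks lay there, with medians of 339.5 and 313 bp.

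Around RefSeq start sites, the wider regions reached farther into the gene and, by less, farther upstream. Over 12085 start sites of 9427 tested genes, coverage by a peak was highest 200 bp after the start in the DMSO list (26.0% of starts) and 250 bp after it in the EPZ6438 list (51.6%). Coverage had a dip 100 bp before the start (6.63% and 14.8%), between an upstream shoulder and the downstream maximum in both lists, and at the start itself 9.08% and 21.2% of sites were covered. At 500 bp after the start 18.5% and 43.5% were covered, at 1000 bp after it 7.54% and 17.3%, and at 500 bp before it 7.94% and 16.0%. In 3359 one-to-one pairs assigned to a start, the downstream edge lay a median of 446 bp after the start in DMSO and 616 bp after it in EPZ6438. Within pairs it moved outward by a median of 90 bp, and the upstream edge by a median of 50 bp. The downstream edge was the one that moved farther in 1938 pairs (57.7%). EPZ6438-only peaks had their maximum at the same place, with 18% of starts covered at 250 bp after the start, while DMSO-only peaks covered 1.05% there and at most 1.48% of starts anywhere from 2000 bp before to 3000 bp after them, with small maxima on both sides of the start.

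**Figure D3:**
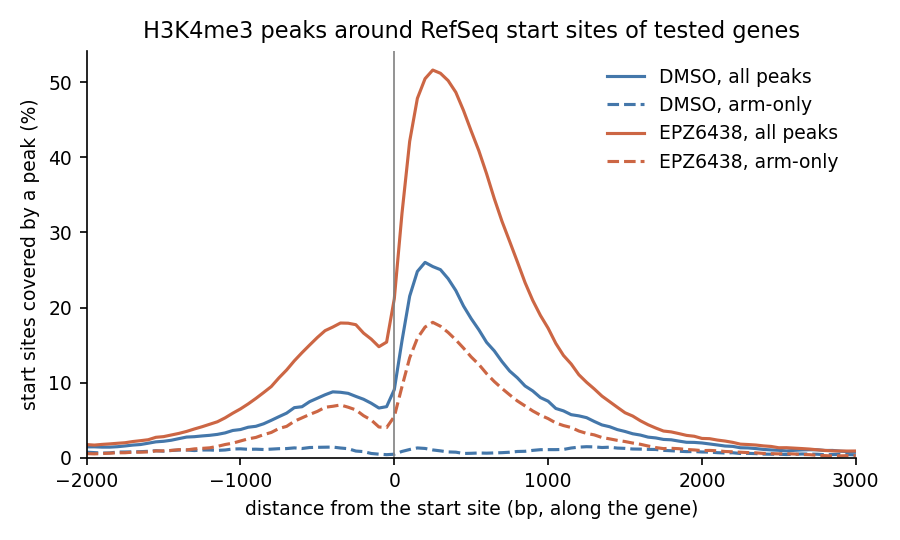
Percent of 12085 RefSeq start sites of tested genes covered by an H3K4me3 peak (y axis) by distance from the start along the gene (x axis, bp), for all peaks of each list (solid) and for peaks of 1 list only (dashed), DMSO in blue and EPZ6438 in orange. Coverage peaks at 26.0% in the DMSO list and 51.6% in the EPZ6438 list, both 200 to 250 bp after the start, and the DMSO-only line stays at or below 1.48%.

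The broadest shared regions lay at genes of different kinds, predicted and antisense genes among them. In the DMSO list Gm21738 had the widest (3911 bp), in a region that also carried DMSO H3K27me3 and whose gene was listed at 0 RPKM in 5 of 6 libraries. Next came Wdr26, a subunit of a ubiquitin ligase complex (2268 bp in DMSO, 2351 bp in EPZ6438), and Bbc3, which encodes the pro-apoptotic protein PUMA (chr7:16310416-16312674, 2259 bp). Bbc3 also had the widest shared peak of the EPZ6438 list (chr7:16309608-16312995, 3388 bp). Chd4, the helicase of the NuRD complex, had 1895 bp in the DMSO list and 3401 bp, over 2 peaks, in the EPZ6438 list. In the EPZ6438 list the next widest were at Runx2os1, an antisense gene of the osteoblast regulator Runx2 (3339 bp), Smarca2, an ATPase of SWI/SNF remodelers (2860 bp), Crim1 (2738 bp) and Mxi1, a MYC antagonist (2737 bp). Of the genes named here other than Gm21738, whose regions summed to 1098 bp over 2 peaks in EPZ6438, Smarca2 showed the largest summed difference, from 690 bp over 2 peaks to 3424 bp over 2 peaks within 1 kb of its ends. Its RNA was 45.3, 43.3 and 41.5 RPKM in DMSO and 32.6, 31.6 and 30.5 RPKM in EPZ6438. The arms did not overlap, and Smarca2 fell by 0.46 on the log2 scale (SE 0.07, limma adjusted p = 0.0123), a call lost without DMSO replicate 2 (adjusted p = 0.0827), EPZ6438 replicate 2 (0.0614) or EPZ6438 replicate 3 (0.0863). Wdr26, Bbc3, Chd4, Mxi1 and Crim1 did not pass the test (adjusted p from 0.368 to 0.755).

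The largest widenings among one-to-one pairs of at least 1000 bp in the wider list began from DMSO peaks at or near the smallest width. They lay at H3f3aos, an antisense gene beside the histone H3.3 gene H3f3a (177 to 1546 bp), Slc30a4 (197 to 1681 bp), the Golgi GTPase gene Arf1 (200 to 1607 bp), Rassf2 (189 to 1441 bp), the shared promoter of the zinc transporter gene Slc39a7 and the retinoid receptor gene Rxrb (183 to 1387 bp), Peli2 (177 to 1259 bp), Wac (177 to 1252 bp) and the planar polarity gene Vangl1 (177 to 1232 bp). Of their protein-coding genes only Rassf2 passed the RNA test. Rassf2 stood at 16.2, 16.6 and 15.4 RPKM in DMSO and 12.2, 11 and 11.6 RPKM in EPZ6438. It fell by 0.47 on the log2 scale (limma adjusted p = 0.0199) while its region was wider, and the call was lost without DMSO replicate 2 (0.126) or any of EPZ6438 replicates 1 (0.0588), 2 (0.091) and 3 (0.107). Slc30a4 had 33.2, 27.9 and 22.0 RPKM in DMSO and 27, 22.0 and 24.2 RPKM in EPZ6438, which overlap (log2 difference -0.17, adjusted p = 0.599).

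Narrowing was rarer, with 654 of the one-to-one pairs narrower and 19 at least 2-fold narrower. Among one-to-one pairs of at least 1000 bp in the wider list, the largest was at Srcin1, from 1001 to 354 bp in a region with H3K27me3, where RNA was under 0.1 RPKM in all 6 libraries. A pair of predicted genes near the start of chromosome 9, Gm17535 and Gm10715, followed (1043 to 531 bp) and was listed at 0 RPKM in all libraries. At expressed genes the peak was narrower at Herc3 (1017 to 600 bp), Rnaset2a (1002 to 678 bp), the H3K4 demethylase gene Kdm5b (1677 to 1189 bp), Glcci1 (1080 to 811 bp), the transcription factor gene Zfp384 (1042 to 842 bp) and the ubiquitin ligase gene Fbxw7 (1183 to 961 bp). Summed over all regions at its ends, Glcci1 was wider in EPZ6438, with 1315 bp over 2 regions against 1080 bp in 1. The others were narrower by this sum as well. Kdm5b RNA was 4.19, 3.8 and 3.34 RPKM in DMSO and 3.64, 3.24 and 3.41 RPKM in EPZ6438, and the arms overlapped (adjusted p = 0.619). None of these expressed genes passed the RNA test (limma adjusted p from 0.065 to 0.737).

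The regions found in only 1 list were of different kinds in the 2 arms. Of the 30606 DMSO-only peaks, 30299 (99.0%) were under 500 bp, 302 had 500 to under 1000 bp and 5 had 1000 to under 2000 bp. Of the 7586 EPZ6438-only peaks, 6195 (81.7%) were under 500 bp, 1292 (17%) had 500 to under 1000 bp and 99 (1.31%) had 1000 to under 2000 bp. Among the DMSO-only peaks 2253 (7.36%, interval 7.07 to 7.66) lay at gene ends and 9353 (30.6%) inside genes. Outside genes lay 6088 (19.9%) at up to 10 kb from a gene end, 10538 (34.4%) at 10 to 100 kb and 2374 (7.76%) at over 100 kb. Among the EPZ6438-only peaks 5092 (67.1%, interval 66.1 to 68.2) lay at gene ends, near the 75.3% and 76.6% of shared peaks in the 2 lists. With peaks of at least 400 bp alone, 17.9% of the DMSO-only and 82.2% of the EPZ6438-only peaks lay at gene ends. Here too the cut came before the overlap, so peaks over a narrower peak of the other list count as peaks of 1 list only. The DMSO-only peaks were thus mostly narrow and away from gene ends, and the EPZ6438-only peaks mostly at gene ends.

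DMSO-only H3K4me3 peaks coincided with H3K27me3. Of the 30606, 18973 (62.0%, interval 61.4 to 62.5) overlapped a peak of the DMSO H3K27me3 list, which holds 143399 peaks over 89.4 Mb. The share was 2.88% for shared DMSO peaks and 2.03% for EPZ6438-only peaks. At gene ends it was 36.9% for DMSO-only, 0.964% for shared and 0.491% for EPZ6438-only peaks, and away from gene ends it was 64.0% for DMSO-only peaks. Wider DMSO-only peaks overlapped it more often: 246 of 307 with at least 500 bp did so (80.1%). In 12436 cases (65.5% of the overlaps) the H3K4me3 peak lay wholly inside the H3K27me3 peak. Peaks of the EPZ6438 H3K27me3 list, 20764 over 11.6 Mb, overlapped 13% of the DMSO-only peaks. The 11633 DMSO-only peaks without H3K27me3 were narrower (median 192 against 205 bp) and stood at the smallest width in 35.8%, against 25.1% of those with it. The chromatin was not immunoprecipitated for both marks in turn, so both marks on the same chromatin cannot be told apart from different cells or alleles carrying each mark. Of all DMSO-only peaks 29.2% stood at the smallest width, and both DMSO lists were called against DMSO input. How much of the overlap came from weak or false calls was not tested.

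**Figure D4:**
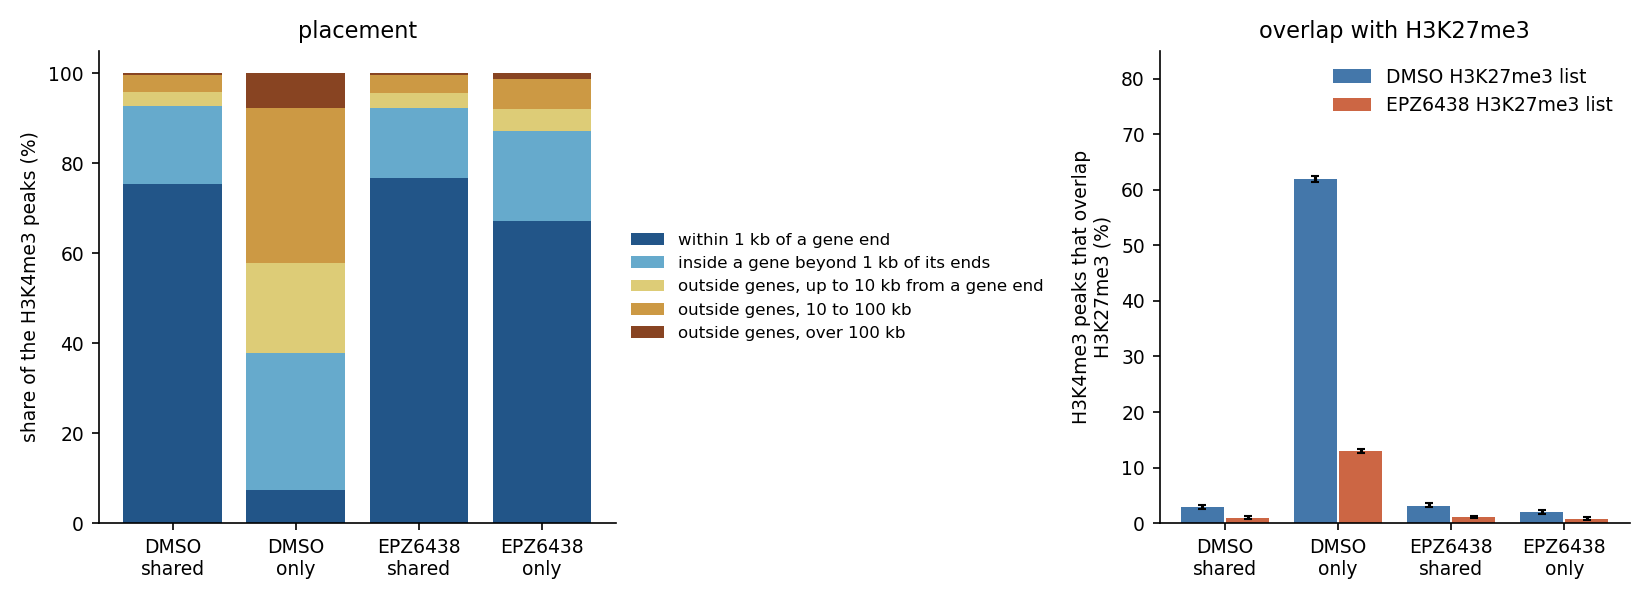
Left, percent of H3K4me3 peaks (y axis) in 5 placements relative to genes for shared peaks and peaks of 1 list only in each arm; right, percent of the same peaks (y axis) that overlap a peak of the DMSO (blue) or EPZ6438 (orange) H3K27me3 list, with Wilson 95% intervals for counting error. DMSO-only peaks stand apart in both panels, with 7.36% at gene ends and 62.0% over DMSO H3K27me3.

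The widest DMSO-only peaks at gene ends lay at 2 pairs of predicted genes near the start of chromosome 9, Gm10718 and Gm10717 (749 bp) and Gm10721 and Gm10720 (730 bp). All were over H3K27me3 and listed at 0 RPKM in all 6 libraries. Reads and peaks of such predicted genes are uncertain where near-identical copies share reads. Next were Usp4, which encodes a deubiquitinase (chr9:108346253-108346981, 729 bp), and Myl9, the regulatory light chain of smooth muscle myosin (chr2:156776309-156776983, 675 bp). At Usp4 the DMSO-only peak lay from -1578 to -850 bp relative to the start, while both lists held other peaks within 1 kb of it. Spidr (642 bp), the spindle gene Tpx2 (634 bp), Stambp (619 bp) and the superoxide dismutase gene Sod1 (592 bp) likewise had another region in the EPZ6438 list. Only Myl9 and Gm10718 had none there. Myl9 RNA was 268, 347 and 401 RPKM in DMSO and 269, 342 and 302 RPKM in EPZ6438, which overlap (adjusted p = 0.681).

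The widest EPZ6438-only peak at a gene end, 1958 bp, lay inside Gas5, the host gene of several small nucleolar RNAs, and within 1 kb of the end of its neighbour Zbtb37 (chr1:161035313-161037270). Another region in both lists lay beside it. The other regions named were at Vgll3, a cofactor of TEAD factors (chr16:65815315-65817128, 1814 bp), Edem1, of endoplasmic reticulum protein degradation (1731 bp), the non-muscle myosin gene Myh9 (1633 bp), Orc3 and Rars2 (1594 bp), Ostf1 and Nmrk1 (1512 bp), the ribosomal scaffold gene Gnb2l1 (1496 bp) and the cytokine kinase gene Jak2 (1463 bp). Vgll3, Edem1, Myh9, Orc3, Rars2, Ostf1, Nmrk1 and Gnb2l1 had no DMSO peak within 1 kb of their ends. All were expressed in DMSO, where they had no listed region: Gnb2l1 stood at 364, 378 and 418 RPKM in DMSO and 399, 444 and 424 RPKM in EPZ6438, and Vgll3 at 59.1, 57.0 and 54.3 RPKM in DMSO and 50.1, 43.5 and 46.6 RPKM in EPZ6438. The arms overlapped for Gnb2l1 and did not for Vgll3, and neither passed (limma adjusted p = 0.474 and 0.0903). Jak2 alone passed: at 15.4, 12.9 and 12.0 RPKM in DMSO and 22.0, 18.6 and 20.1 RPKM in EPZ6438, it rose by 0.59 on the log2 scale (adjusted p = 0.0296). That call was lost without DMSO replicate 2 (adjusted p = 0.139), DMSO replicate 3 (0.0516) or EPZ6438 replicates 1 (0.107), 2 (0.0683) and 3 (0.122).

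RNA was set against these regions by giving every gene the class of its own ends. Of the 14213 genes tested with limma on log2(RPKM + 0.1), 1001 passed an adjusted p of 0.05, which is 7.04%; 3.8% were higher and 3.24% lower in EPZ6438. Among the 1907 tested genes with a shared region at least 2-fold wider in EPZ6438, 68 rose and 47 fell, 6.03% in all. Of the 3817 with a region within 2-fold, 88 rose and 89 fell (4.64%). Of 14 with a region at least 2-fold narrower, 0 passed in limma and 0 with voom, and 1 had an unadjusted p under 0.05. Of 2689 tested genes with H3K4me3 in the EPZ6438 list only, 98 rose and 86 fell (6.84%), and of 426 with it in the DMSO list only 20 rose and 19 fell (9.15%). Among 4474 genes with no region in either list 233 rose and 186 fell (9.37%). The shares of widened and of EPZ6438-only genes lay near or below that of all genes, and each class held both rises and falls. RNA came from bulk cultures, in which fewer cells of a type and less RNA per cell cannot be told apart.

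Median RNA levels were close between the arms in each class. Median RPKM was 12.7 in DMSO and 12.5 in EPZ6438 for genes with a widened region, 9.25 and 8.87 for EPZ6438-only genes and 4.71 and 4.50 for DMSO-only genes, against 7.65 and 7.46 for all tested genes. The median log2 difference was -0.01, -0.04 and -0.06 in the 3 classes and -0.03 over all genes. Over 5399 genes with a one-to-one pair, the log2 width ratio had a Spearman rho of 0.02 with the log2 RNA difference, a value across genes, which are not independent replicates. The counts depended on the RNA libraries. Without DMSO replicate 2 or EPZ6438 replicate 1, 2 or 3, the genes called numbered 323, 445, 424 and 359 in all, 33, 51, 53 and 37 in the widened class, 62, 76, 74 and 63 in the EPZ6438-only class and 10, 19, 16 and 13 in the DMSO-only class.

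In each class, genes whose ends also carried H3K27me3 in DMSO had mostly rises among their calls. Of 100 tested EPZ6438-only genes with DMSO H3K27me3, 17 rose and 1 fell, against 81 and 85 of 2589 without it. Of 128 DMSO-only genes with it 14 rose and 3 fell, against 6 and 16 of 298 without it. Of 247 such genes with H3K4me3 in both lists 25 rose and 4 fell, against 164 and 166 of 6377 without it. Of 622 with no H3K4me3 in either list 78 rose and 9 fell, against 155 and 177 of 3852 without it. Over all 1097 tested genes with DMSO H3K27me3, 134 rose (12.2%) and 17 fell. Those 1097 were the tested part of 6997 such genes, at a median of 2.01 RPKM in DMSO against 8.20 RPKM for tested genes without H3K27me3. A gene silent in DMSO entered the test only through its EPZ6438 reads and could then only rise. How much of the excess of rises came from this entry rule was not tested, nor were differences between the classes.

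Genes of bone formation were among those with a wider region and more RNA. Phospho1 had 1 region of 320 bp in DMSO and of 1640 bp in EPZ6438. Its RNA was 24.5, 28.4 and 31.1 RPKM in DMSO and 153, 165 and 174 RPKM in EPZ6438. The arms stood far apart, with a log2 change of 2.55 (SE 0.10, limma adjusted p = 8.15e-05). Sp7, a transcription factor required for osteoblasts, had 4 regions summing to 1103 bp in DMSO and 2 summing to 2015 bp in EPZ6438. Its RNA was 52.6, 53.8 and 55.8 RPKM in DMSO and 99.1, 105 and 101 RPKM in EPZ6438, with no overlap (log2 change 0.91, adjusted p = 0.000704). Runx2, the master regulator of the lineage, had 582 and 1323 bp over 2 regions each, with RNA of 31.9, 30.6 and 28.7 RPKM in DMSO and 48.0, 42.3 and 47.0 RPKM in EPZ6438. Runx2 rose by 0.59 on the log2 scale (adjusted p = 0.00813), a call lost without DMSO replicate 2 (0.0563) or EPZ6438 replicate 3 (0.0576). Tcf7, a transcription factor of Wnt signalling, had 215 and 548 bp. It stood at 15.4, 14.8 and 14.8 RPKM in DMSO and 55.5, 53.3 and 57.1 RPKM in EPZ6438, again without overlap (log2 change 1.87, adjusted p = 8.15e-05). The directions of these 4 genes in RNA were known when they were chosen.

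Further rises at regions at least 2-fold wider were at genes of lower level. Prkaa2, a catalytic subunit of the energy sensor AMPK (291 to 639 bp), stood at 0.274, 0.440 and 0.401 RPKM in DMSO and 1.84, 1.61 and 1.59 RPKM in EPZ6438 (log2 change 1.93, limma adjusted p = 0.00193). Tmem229b (204 to 660 bp, log2 change 1.69), Rhpn2 (177 to 486 bp, 1.55) and Tmod1, which caps actin filaments (294 to 631 bp, 1.34), rose as well, with no overlap between arms. Of these, Tmem229b carried H3K27me3 at its ends in DMSO and not in EPZ6438. Genes that fell had wider regions too. Cav1, the main protein of caveolae, had regions of 406 and 1113 bp. Its RNA was 72.1, 60.6 and 53.8 RPKM in DMSO and 28.9, 24.2 and 24.7 RPKM in EPZ6438, so that every DMSO library lay above every EPZ6438 library (log2 change -1.25, SE 0.13, adjusted p = 0.00219). Six2, a homeobox regulator, had the widest summed difference of the named genes, from 1490 bp over 3 regions to 4572 bp over 6. It stood at 28.9, 29.9 and 31.1 RPKM in DMSO and 18, 17.6 and 19.0 RPKM in EPZ6438 (log2 change -0.72, adjusted p = 0.00252). Dkk3, a member of the Dickkopf family of secreted proteins, had 354 and 747 bp and fell by 0.64 on the log2 scale (adjusted p = 0.00355). Nov, a secreted matricellular protein, had a smaller summed width in EPZ6438, 515 bp over 2 regions and 301 bp in 1. It fell from 181, 190 and 184 RPKM to 52.3, 48.5 and 53.8 RPKM (log2 change -1.84, adjusted p = 8.15e-05).

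Genes with H3K4me3 in the EPZ6438 list only included strong rises, though 3.64% of those tested rose, against 3.8% of all tested genes. The genes named here were picked for a called or already known RNA change. Smpd3, a neutral sphingomyelinase needed for bone mineralization, had no DMSO region and one of 878 bp in EPZ6438. Its RNA was 9.16, 12.1 and 14.2 RPKM in DMSO and 75.4, 88.6 and 83.9 RPKM in EPZ6438, with no overlap (log2 change 2.81, SE 0.16, limma adjusted p = 0.000313). Tnfrsf11b, which encodes the decoy receptor osteoprotegerin, had 626 bp in EPZ6438, and its RNA was 45.2, 38.8 and 35.3 RPKM in DMSO and 155, 137 and 150 RPKM in EPZ6438 (log2 change 1.89, adjusted p = 0.000313). Col2a1, the collagen of cartilage, had 474 bp over 2 regions. It stood at 10.3, 15 and 18.4 RPKM in DMSO and 77.6, 107 and 88.4 RPKM in EPZ6438, also without overlap (log2 change 2.66, adjusted p = 0.0011). Wif1 had 244 bp, close to the smallest width of the list, and lost the H3K27me3 peak it had in DMSO. Wif1 RNA was 2.41, 2.19 and 2.35 RPKM in DMSO and 16.9, 14.5 and 14.9 RPKM in EPZ6438, with no overlap between arms (log2 change 2.68, SE 0.11, adjusted p = 8.15e-05). Ibsp, the bone sialoprotein gene (332 bp, log2 change 1.61), Tubb3 (260 bp, 2.06), the secreted Wnt antagonist gene Frzb (361 bp, 2.36) and Scube3 (460 bp, 1.22) rose too. Frzb was at 0, 0 and 0.0122 RPKM in DMSO and 0.220, 0.678 and 0.509 RPKM in EPZ6438, so its fold change rests on very few reads.

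A region in the EPZ6438 list only also stood at genes that fell. Rspo2, a secreted activator of Wnt signalling (245 bp), stood at 8.86, 8.70 and 7.75 RPKM in DMSO and 3.74, 3.68 and 3.18 RPKM in EPZ6438, with the DMSO libraries all higher (log2 change -1.23, SE 0.12, limma adjusted p = 0.00168). Pdk4, which restrains pyruvate oxidation (262 bp, log2 change -1.45), the growth factor gene Igf1 (229 bp, -1.21), Drp2 (229 bp, -1.39) and the interferon-induced GTPase gene Gbp2 (737 bp, -1.18) fell as well. Of these 5, Gbp2 alone had a region wider than 300 bp. Igf1 and Drp2 stood at the smallest width of the list. The class also held abundant genes that did not pass. Rpl4, of the large ribosomal subunit, had 608 bp over 2 EPZ6438 regions and no DMSO region, with mean RNA of 1442 ± 58.5 (SD, n = 3) and 1524 ± 17.3 RPKM (SD, n = 3), a difference that did not pass (limma adjusted p = 0.662). Acta2, the smooth muscle actin gene, had 1235 bp over 3 regions in EPZ6438 only and fell by 0.47 on the log2 scale (adjusted p = 0.0229), a call lost without DMSO replicate 2 (0.129) or EPZ6438 replicates 1 (0.1), 2 (0.108) and 3 (0.123).

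At genes with H3K4me3 in the DMSO list only, regions were narrow in every named case, from 184 to 288 bp outside Myl9 and the chromosome 9 cluster. Ostn, which encodes the secreted peptide osteocrin, had 265 bp and an H3K27me3 peak at its ends in DMSO. In EPZ6438 it had a listed region of neither mark. It was listed at 0 RPKM in the 3 DMSO libraries and at 0.634, 0.815 and 0.386 RPKM in the EPZ6438 libraries (limma adjusted p = 0.00178). Robo2, shown above, had 198 bp from -702 to -505 bp relative to its start, and an H3K27me3 peak at its ends in DMSO and not in EPZ6438. Its RNA was 0.834, 0.618 and 0.597 RPKM in DMSO and 2.91, 2.46 and 2.54 RPKM in EPZ6438, with no overlap (log2 change 1.82, SE 0.17, adjusted p = 0.0017). Tlx1, a homeobox gene with H3K27me3 in both lists (253 bp), rose by 1.68 on the log2 scale from a mean of 0.0359 to 0.343 RPKM (adjusted p = 0.00841). Hapln1, a link protein of cartilage matrix (189 bp, no H3K27me3), rose from 3.55, 3.39 and 3.06 to 7.97, 7.63 and 7.22 RPKM (log2 change 1.17, adjusted p = 0.00165). Trp63, which encodes the transcription factor p63 (184 bp), went the other way. Trp63 was at 9.54, 9.74 and 8.11 RPKM in DMSO and 3.61, 3.42 and 3.62 RPKM in EPZ6438, with all DMSO libraries higher (log2 change -1.34, SE 0.11, adjusted p = 0.00118). Oasl2, an interferon-induced gene (207 bp, H3K27me3 in DMSO), was at 0.836, 1.52 and 1.36 RPKM in DMSO and 0.392, 0.278 and 0.167 RPKM in EPZ6438 (log2 change -1.83, adjusted p = 0.0145, lost without DMSO replicate 2 at 0.0722 and EPZ6438 replicates 2 and 3 at 0.0557 and 0.0531).

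**Figure D5:**
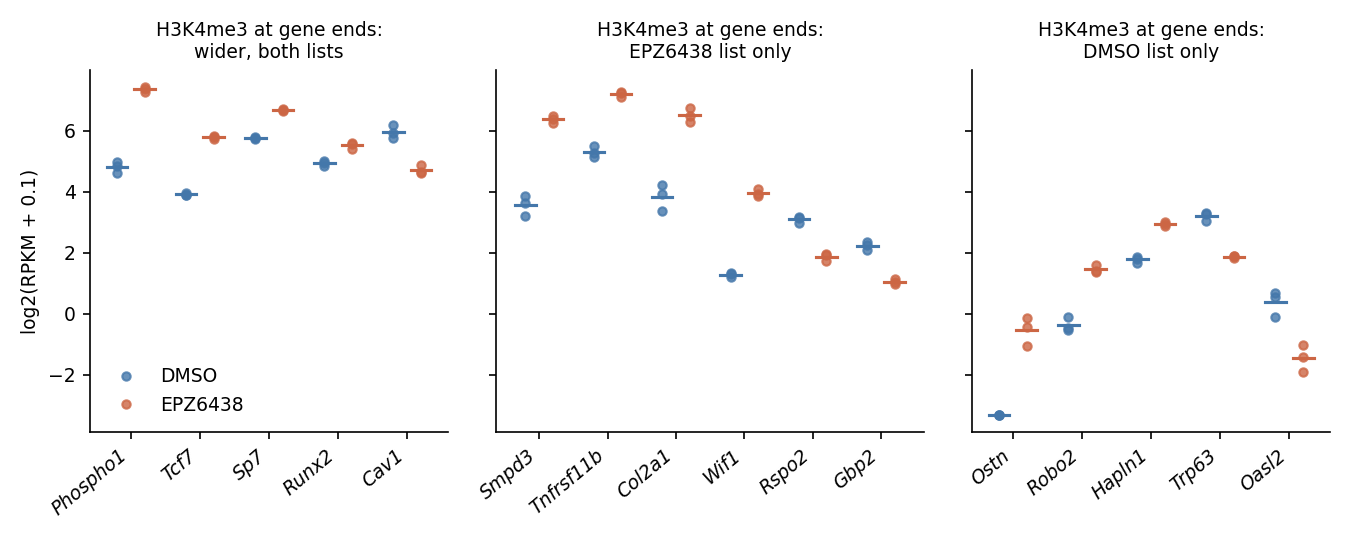
RNA level of named genes on the log2(RPKM + 0.1) scale (y axis) in each of 3 DMSO (blue) and 3 EPZ6438 (orange) libraries, with short lines at the group means, by H3K4me3 class of the gene's ends. Each of the 3 classes holds genes that are higher and genes that are lower in EPZ6438. The arms do not overlap for any of the 16 genes plotted, which were all picked for a called or already known RNA change. That separation follows largely from the choice.

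Several of the strongest RNA changes lay at genes with no H3K4me3 region in either list. Of the 21 genes chosen for RNA changes already known, 7 had a region in both lists, 6 in the EPZ6438 list only, 0 in the DMSO list only and 8 in neither. Over all 14213 tested genes these counts were 6624, 2689, 426 and 4474, and no test was made between the 2 sets. The 8 were Slc8a3, a sodium-calcium exchanger, Ifitm5, Hpse, Eln, Cd200, the alkaline phosphatase gene Alpl, Apcdd1 and the chemokine gene Ccl2. Ifitm5, a membrane protein of osteoblasts, stood at 55.2 to 73.0 RPKM in EPZ6438 without a region, and Alpl at 12.4 to 14.2 RPKM. Slc8a3, Hpse, Eln and Cd200 carried H3K27me3 at their ends in DMSO and not in EPZ6438. A gene without a listed region is one whose signal did not reach the authors' call, and says nothing of how much mark was there.

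The enzymes of the mark itself did not pass the RNA test. Of 17 tested members of the H3K4 methyltransferase complexes 0 passed in limma and 0 with voom, and 1 had an unadjusted p under 0.05. For 6 H3K4 demethylases these counts were 0, 0 and 0, and for 12 readers of H3K4me3 they were 0, 0 and 1. Of the 17 writers 11 had a region in both lists, all 11 with a larger summed width in EPZ6438 (medians 767 and 1340 bp), as had 6686 of 7463 genes over the whole table, 3 in the EPZ6438 list only and 1, Dpy30, a core subunit, in the DMSO list only. Dpy30 was at 49.1, 44.0 and 40.7 RPKM in DMSO and 37.5, 35.6 and 36.3 RPKM in EPZ6438, with no overlap but an adjusted p of 0.109. Of the 4 demethylase genes with a region in both lists, 3 had a larger sum in EPZ6438. In Polycomb repressive complex 2, 7 of 11 had a region in both lists, all 7 with a larger sum, and Phf19 alone rose (234 to 541 bp, log2 change 1.04, adjusted p = 0.0171). Without EPZ6438 replicate 1, 2 or 3, Phf19 no longer passed (0.0591, 0.0764 and 0.0753).

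Widening was seen in lists whose RNA changed and in lists whose RNA did not. Several lists hold genes whose RNA change was already known, so their RNA counts are not an independent result. In the osteoblast list these are Runx2, Sp7, Alpl, Ibsp, Phospho1, Smpd3, Ifitm5 and Tnfrsf11b, and among Wnt antagonists Wif1, Apcdd1 and Dkk3. Tcf7, Rspo2, Gas1 and Col2a1 stand in the Wnt target, Wnt ligand, Hedgehog and chondrocyte lists. The counts below stand beside 6686 of 7463 genes with a larger summed width (medians 422 and 843 bp), and beside 3.8% of all tested genes higher and 3.24% lower in EPZ6438. Among osteoblast markers 10 of 11 did (547 and 1323 bp), and 15 of 27 tested members rose and 2 fell. Among ribosomal protein genes 17 of 19 did (395 and 941 bp), and 0 of 30 passed the RNA test in limma or voom or had an unadjusted p under 0.05. Among proliferation genes 14 of 17 did (278 and 526 bp), and 0 of 28 passed in limma or voom. Of these 28, 7 had an unadjusted limma p under 0.05, with 6 higher and 1 lower in EPZ6438. In homeobox regulators outside the Hox clusters 13 of 14 did (737.5 and 1739.5 bp), and 4 of 30 tested rose and 2 fell. Among 16 tested Wnt target genes 8 rose and 1 fell, with 8 of 10 wider. The Wnt ligands and receptors had 7 rises and 2 falls of 24, with 10 of 11 wider, and included Wnt10b, whose region was 205 bp in DMSO and 1013 bp in EPZ6438 (log2 RNA change 0.63, limma adjusted p = 0.00468). In the Hedgehog pathway 2 of 16 rose and 2 fell, with 7 of 9 wider. Gas1, a Hedgehog co-receptor, was among the falls, at 30.3, 28.5 and 25.2 RPKM in DMSO and 10.5, 9.83 and 9.54 RPKM in EPZ6438 with regions of 337 and 421 bp (log2 change -1.48, adjusted p = 0.000515). Among Wnt antagonists 4 of 8 tested rose and 3 fell, with both of the 2 that had a region in both lists wider (394.5 and 958 bp). Of 12 tested chondrocyte markers 6 rose, and none fell even at an unadjusted p under 0.05; 11 of the 16 listed had no region in either list. Of 20 tested interferon response genes 1 rose and 7 fell, with 5 of 6 wider (310 and 400 bp). Of the smooth muscle and myofibroblast markers, 4 of 9 had a region in the EPZ6438 list only, 2 in the DMSO list only and 1 in both; 2 of 8 fell.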

How the data were processed

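RNA levels and H3K4me3 regions of MC3T3-E1 subclone 4 cells were compared between arms grouped by the labels. The authors deposited RPKM per gene, per the file headers, for 43346 genes with positions and lengths but no strand, of which 43309 lie off the mitochondrial genome and were used. Peaks were deposited as 1 file per mark and arm, holding other values, namely the start and end of each peak. Per the file names they were called on merged samples against merged input. Per the submitters' processing notes, which give no roles, STAR 2.6.1c, Subread, MACS2, HOMER, DiffBind, Picard, FastQC and bcl2fastq were used with mm10. Peak thresholds, annotation release, strand setting and ChIP depth: not given in the sources used here.

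The RPKM values times gene length gave whole reads for 100% of values, and totals of 18807156 to 25365513 reads per library. The 14213 genes that reached 10 such reads in 3 or more libraries entered a limma 3.58.1 fit (trend, two-sided; R 4.3.3) on log2(RPKM + 0.1), with Benjamini-Hochberg adjustment and no block; fold changes on this scale understate those of low genes. The test was tested on simulated data. The planned count model was not used because the unit is RPKM. Reads carry no molecular identifiers, and intervals cover counting error only.

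Peaks were compared by at least 1 bp of overlap, and windows extended 1 kb in either direction from both ends of a gene (Python 3.11.15, numpy 2.4.6, pandas 2.3.3, scipy 1.17.1, matplotlib 3.10.9). Genes sharing a window share its peaks. Reads of overlapping genes and near-identical copies cannot be told apart. Promoter sequences were matched by symbol to RefSeq windows (GRCm38.p6; 18182 symbols of the gene table matched).

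The members, gene lists and tests were chosen with earlier results of these data known. Genes were named by rule: the 6 widest shared regions of each list, the 8 largest narrowings and widenings, the 8 widest regions of 1 list only, the 5 largest rises and falls of each class, up to 3 members of each list, and 21 genes with known RNA changes; regions without a nearby RefSeq window were passed over for sequences. Alternatives were other overlaps, widths, windows, pairings, filters, pseudocounts, scaling, a replicate block and leaving out each library.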

Additional observations from a re-analysis of the deposited data

How the results depend on the processing

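Each value has 1 merged list per arm behind it, without replicates, heights or known depth, so a region absent from a list may lie just under the call. All settings listed here kept the direction of the width difference. In the order of an overlap of 50% of the shorter peak, peaks of at least 400 bp, peaks closer than 500 bp joined, and (chosen after seeing the data) without chromosome 6, the shared share of DMSO peaks was 22.9%, 66.9%, 21.5% and 24.5%. For the first 3, that of EPZ6438 peaks was 51.4%, 29.8% and 60.5%. The 400 bp cut was made before the overlap, so peaks over a narrower peak of the other list count as unshared in every value at that setting. The median log2 width ratio of shared pairs was 0.81, 0.45, 0.85 and 0.79 in the same order. It was 0.77 and 0.78 with windows of 500 bp and 2 kb, 0.81 at ends of tested genes, 0.63 in one-to-one pairs and 0.63 for summed widths. Of the settings added after seeing the data, it was 0.43 for pairs of at least 300 bp and 0.47 with 52 bp taken off. The share wider was 84.0% with peaks of at least 400 bp, 86.8% joined, 85.1% for pairs of at least 300 bp and 77.3% with 52 bp taken off.

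With peaks of at least 400 bp and with joined peaks, the share under 500 bp was 66.5% and 95.2% of DMSO-only peaks and 33.4% and 71.1% of EPZ6438-only peaks. The DMSO-only share at gene ends was 7.94% (50% overlap), 17.9% (400 bp), 6.69% (joined), 4.02% (500 bp window), 13.5% (2 kb), 4.29% (tested ends) and 7.68% (without chromosome 6). The EPZ6438-only share was 82.2% (400 bp), 63.4% (joined), 53.5% (500 bp window), 76.3% (2 kb) and 64.3% (tested ends). H3K27me3 overlap was 61.4% (50% overlap), 66% (400 bp) and 60.8% (without chromosome 6) of DMSO-only peaks. With 400 bp and joined peaks it was 1.43% and 3.59% of shared DMSO peaks, and 0.576% and 3.11% of EPZ6438-only peaks.

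Genes called numbered 628 with no low-value filter and 323 to 978 leaving out 1 library, with fewer samples in the test. DMSO-only genes called numbered 7 (400 bp), 61 (2 kb), 87 (any gene with such a region), 24 (no filter) and 10 to 41 leaving out 1 library. EPZ6438-only genes called numbered 290 (any gene), 118 (no filter) and 62 to 181 leaving out 1 library, and widened genes 19 (400 bp) and 33 to 123. Apart from constructions with fewer samples or peaks, the cause was not tested. Among 66 named genes called, 13 lost their call without the filter, 2 with a pseudocount of 1 RPKM and 4 to 16 leaving out 1 library; none reversed. Whether the replicate numbers pair the samples was not settled, since deviations from a mean of 3 libraries cannot decide it. Correlations were 0.41, 0.08 and 0.06 within numbers and ran from -0.41 to 0.33 across them. With the replicate block 1051 genes were called, 42, 188 and 127 in the DMSO-only, EPZ6438-only and widened classes. Voom on recovered reads, added after seeing the data, called 1168. The planned count model was not run, since the unit is RPKM.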

Other observations

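DMSO-only H3K4me3 peaks were unevenly spread over chromosomes. Chromosome 6 held 3959 DMSO peaks, the most of any chromosome, of which 3319 (83.8%) were absent from the EPZ6438 list. The EPZ6438 list held 990 peaks there. On the X chromosome 155 of 250 DMSO peaks (62%) were absent from the EPZ6438 list.

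The genes beside the regions differed in kind. Of 7463 genes with H3K4me3 in both lists 86.0% were protein-coding, as were 85.3% of 3126 with it in the EPZ6438 list only. Of 1302 genes with it in the DMSO list only 57.1% were protein-coding. Only 426 of those 1302 reached the RNA test, against 2689 of the 3126.

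Many regions of 1 list at gene ends stood close to a region of the other. Within 500 bp lay a region of the EPZ6438 list for 548 of 2253 DMSO-only peaks at gene ends (24.3%), and a region of the DMSO list for 1482 of 5092 EPZ6438-only peaks there (29.1%). Away from gene ends this held for 467 DMSO-only peaks (1.65%) and 491 EPZ6438-only peaks (19.7%).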
